A study of Homo sapiens with 4 samples.

Results

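Lysosomal enzymes and membrane proteins are described here by 41 genes, taken by symbol from a fixed list of acid hydrolases, cathepsins and proteins of the lysosomal membrane. Each of the 41 symbols was found once in the deposited table, which has 17064 rows. The RNA came from KYSE-150, an established cell line of esophageal squamous cell carcinoma. One group of cells carried a stable short hairpin RNA (shRNA) against NSUN6, an RNA methyltransferase that forms 5-methylcytosine, and the control group had normal NSUN6 expression. Cells of both groups were treated with cycloheximide, which halts elongating ribosomes. RNA of the cleared lysate (input) and RNA pelleted with polyribosomes through sucrose were sequenced separately. This gives 4 libraries, both fractions from both kinds of cells. Each group is a single library, so nothing below could be checked against replicates and no test was run.

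The table carries a second line of column names at its end, and it does not match the header. It gives the control columns as K150 with a hairpin against GFP and the other pair as K30 with a hairpin against Mettl1, and it lists that pair as input before polyribosome, where the header has polyribosome before input. Here the header is followed, since its names are those of the sample labels. The second pair is called knockdown-labelled, and values with its 2 fractions exchanged are given for the counts and groups below. Levels are in FPKM, fragments scaled to transcript length and library size. NSUN6 was at 8.85 FPKM in the input and 10.1 on the polyribosomes of control cells, and at 3.83 and 0.38 in those of knockdown-labelled cells. METTL1 was at 13.02, 14.3, 5.98 and 8.32 FPKM in the same order. Whether a difference between the pairs goes with the hairpin, with the cells they came from or with 1 culture cannot be told apart.

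Lysosomes are acidified compartments in which macromolecules from endocytosis and autophagy are broken down. Most of their soluble hydrolases are made on endoplasmic reticulum ribosomes, tagged with mannose 6-phosphate in the Golgi and carried to late endosomes by mannose 6-phosphate receptors, while heavily glycosylated membrane proteins line the compartment. Many of the genes share a promoter element, the CLEAR element, which is bound by TFEB, TFE3 and MITF when nutrients are low and mTORC1 is inactive. Cathepsins are the proteases of this compartment.

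The E-box at the core of that element was looked for in the promoters. RefSeq promoter windows on GRCh38.p14, from 250 bases before to 50 bases after the first listed start site, were matched for 30 of the 41 genes. Of these, 10 held the E-box CACGTG (33.3%), against 7.43% of 27305 promoters of all genes and 10.5% of the 5789 promoters of genes that passed the expression filter below. The 8-letter form TCACGTGA was in 6 of 30 (20%, against 1.04% and 1.9%), and that form with a G before and a C after it, which makes 10 letters, was in 3 (10%, against 0.381% and 0.829%). The forms are nested and each reads the same on both strands. The 10 genes were CD63, CLN3, CTSA, CTSD, CTSF, GAA, GALNS, LAMP1, MCOLN1 and NEU1. A match describes these letters and shows no binding. Windows around the sites upstream of the start are shown for GAA, GALNS and MCOLN1, which hold the longest form, for CTSA and LAMP1, which hold several sites, and for CTSD, the most abundant protease. Capitals mark the longest form at each site.
GAA: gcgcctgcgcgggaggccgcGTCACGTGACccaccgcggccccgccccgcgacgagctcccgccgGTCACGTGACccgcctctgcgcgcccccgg
GALNS: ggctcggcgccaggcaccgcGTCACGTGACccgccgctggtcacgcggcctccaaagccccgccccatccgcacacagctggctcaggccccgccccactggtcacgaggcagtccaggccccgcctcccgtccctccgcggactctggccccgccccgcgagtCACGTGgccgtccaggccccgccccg
MCOLN1: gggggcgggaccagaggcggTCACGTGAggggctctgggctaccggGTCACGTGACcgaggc
CTSA: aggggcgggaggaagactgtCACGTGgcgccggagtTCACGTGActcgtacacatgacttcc
LAMP1: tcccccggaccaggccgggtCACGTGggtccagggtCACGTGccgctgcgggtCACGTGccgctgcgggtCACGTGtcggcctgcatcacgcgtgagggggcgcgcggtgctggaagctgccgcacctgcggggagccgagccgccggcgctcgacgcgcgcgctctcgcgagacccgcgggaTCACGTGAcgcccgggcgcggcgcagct
CTSD: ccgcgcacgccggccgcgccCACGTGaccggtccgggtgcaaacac
These windows lie at chr17:80101483-80101577 on the plus strand for GAA, chr16:88856954-88857143 on the minus strand for GALNS, chr19:7522562-7522623 on the plus strand for MCOLN1, chr20:45891273-45891334 on the plus strand for CTSA, chr13:113297027-113297237 on the plus strand for LAMP1 and chr11:1763949-1763994 on the minus strand for CTSD. GAA, which encodes the acid glucosidase of glycogen breakdown, has the 10-letter form 78 and 33 bases before its start. MCOLN1, which encodes the lysosomal calcium channel mucolipin, has it 16 bases before the start. LAMP1 has 6 sites in its window, of which 1 spans the start site and is not printed.

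Levels spanned a wide range, and the order of the most abundant genes was similar in the 4 libraries. FPKM is per length, so genes can be compared within a library. Values are given as input and polyribosome RNA of control cells, then input and polyribosome RNA of knockdown-labelled cells. NPC2, which hands cholesterol to NPC1, was at 224, 264, 502 and 464 FPKM in this order. CD63, a tetraspanin of late endosomes, was at 179, 230, 373 and 495 FPKM. CTSD, the aspartic protease cathepsin D, was at 155, 168, 445 and 696 FPKM, and PSAP, the precursor of the saposins that present sphingolipids to hydrolases, at 90.2, 107, 232 and 259 FPKM. These 4 genes held the first 4 ranks in every library and were higher in both knockdown-labelled libraries than in either control library. They made up 44.8% of the summed FPKM of the 41 genes in control input and 59.9% in knockdown-labelled input. The 41 genes summed to 0.25%, 0.286%, 0.481% and 0.453% of all FPKM in the same order of libraries.

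At the other end, CTSK, the collagen-degrading cathepsin K, was at 0.34 FPKM or less in each library. CTSS, the cathepsin of antigen-presenting cells, was at 0.17, 0.13, 1.82 and 0.86 FPKM. ARSA and ARSB, the arylsulfatases of sulfatide and dermatan sulfate, stayed between 1.69 and 3.90 FPKM. IDUA, the iduronidase of heparan and dermatan sulfate, was at 1.81, 1.78, 5.76 and 10.1 FPKM. CTSZ was at 0.20, 0.22, 8.62 and 10.3 FPKM. CTSF was listed at 0 in control input, at 0.02 on control polyribosomes and at 4.51 and 5.86 FPKM in the knockdown-labelled libraries, so no fold is given for it. These 7 genes had means under 5 FPKM over the 4 libraries and stayed out of the counts below. The other 34 had a mean of at least 5 FPKM, as did 7379 rows of the table. CTSL and FUCA1 passed through the knockdown-labelled libraries and CTSH and TPP1 through the control libraries, so these 4 had to differ. NPC1 too passed only through the knockdown-labelled libraries, by a small margin, with means of 4.975 FPKM in control and 5.915 in knockdown-labelled cells. The counts over 34 genes thus describe and support nothing.

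**Figure D1:**
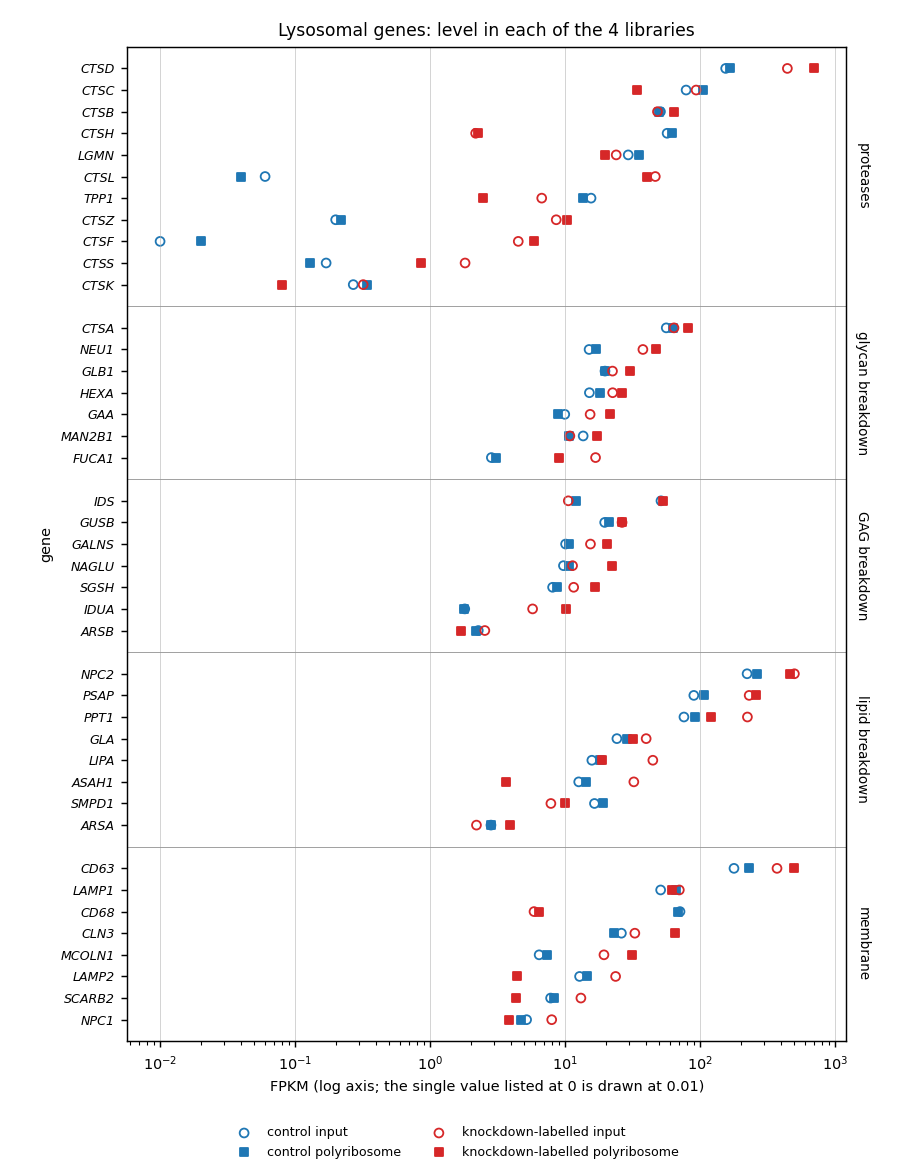
FPKM of each of the 41 genes (log axis) in the 4 libraries, 1 symbol per library, grouped by role (GAG, glycosaminoglycan). For most genes the 4 symbols lie close together, while CTSL, CTSF and CTSZ are near the left edge in control libraries (at most 0.22 FPKM) and CTSH and CD68 are far lower in the knockdown-labelled libraries.

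The first comparison set polyribosome RNA against input of control cells, which gives translation efficiency as the series defines it. Efficiency is used here as the difference of log2(FPKM + 1), and genes at least 2-fold apart on that scale are counted. The 34 lysosomal genes had a median of 0.12, against 0.03 over all 7379. Of them 25 were above 0 (73.5%, against 54.3% of all genes). None of the 34 was at least 2-fold higher (0% of all genes were) and 1 was at least 2-fold lower (0.759% of all genes). That gene was IDS, the iduronate sulfatase of heparan sulfate breakdown, at 51.5 FPKM in control input and 12.2 on control polyribosomes, a log2 difference of -1.99. The other 33 lay within 2-fold, among them CTSL, whose control levels of 0.06 and 0.04 FPKM put it near 0 whatever the ratio. CTSC, the dipeptidyl peptidase that activates granule serine proteases, had the highest value, 0.40, followed by LAMP1 at 0.38 and CD63 at 0.36. The 7 lipid enzymes and carriers were all above 0 and lay between 0.16 (ASAH1) and 0.28 (PPT1). MAN2B1, the lysosomal alpha-mannosidase, was at -0.31, the lowest after IDS.

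In knockdown-labelled cells the same ratio was spread much more widely. Of the 34 genes, 1 was at least 2-fold higher on polyribosomes (8.62% of all genes) and 6 were at least 2-fold lower (28.8% of all genes), with a median of 0.13 against -0.02 over all genes. IDS was the highest at 2.24, with 10.6 FPKM in input and 53.7 on polyribosomes, the mirror of its control values. ASAH1, the acid ceramidase, was the lowest at -2.85, with 32.4 FPKM in input and 3.64 on polyribosomes. LAMP2, a major membrane glycoprotein and the receptor of chaperone-mediated autophagy, was at -2.20, CTSC at -1.42, SCARB2, the receptor that carries glucocerebrosidase, at -1.40, LIPA, the acid lipase, at -1.21 and TPP1, a tripeptidyl peptidase, at -1.16. CLN3, a membrane protein lost in juvenile Batten disease, was at 0.96 and NAGLU, a glucosaminidase of heparan sulfate, at 0.92. With the fractions exchanged each of these values has the opposite sign by construction.

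The second comparison set the inputs of both kinds of cells against each other. Lysosomal messages were mostly more abundant in knockdown-labelled input. Of 34 genes 26 were above 0, against 50.7% of all genes, and the median difference was 0.54 against 0.01. At least 2-fold higher were 11 (32.4%, against 13.2% of all genes), and 4 were at least 2-fold lower (11.8%, against 14.4%). CTSL and FUCA1 are among the higher genes and CTSH and TPP1 among the lower ones. These had to differ through the filter, so no conclusion is drawn from the shares. With the fractions exchanged 11 were higher and 6 lower, beside 15.9% and 31.8% of all genes.

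Enzymes and carriers of lipid breakdown made up the largest share of the 11. Of these 7 genes 5 were at least 2-fold higher, beside 13.2% of all genes, and the median was 1.29. PPT1, which removes palmitate from proteins, was at 76.2 FPKM in control input and 225 in knockdown-labelled input, a difference of 1.55. LIPA was at 15.8 and 44.8 FPKM (1.44), PSAP at 90.2 and 232 (1.35), ASAH1 at 12.7 and 32.4 (1.29) and NPC2 at 224 and 502 (1.16). GLA, the alpha-galactosidase of Fabry disease, was within 2-fold at 0.70. SMPD1, the acid sphingomyelinase, was at 16.6 and 7.87 FPKM, or 47.6% of control. On the log2(FPKM + 1) scale this was -0.98, just short of 2-fold lower. With the fractions exchanged, 2 of the 7 were at least 2-fold higher, beside 15.9% of all genes, and the median was 0.39. ASAH1 was then at -1.56, PPT1 at 0.67 and LIPA at 0.24, while PSAP and NPC2 stayed at least 2-fold higher, at 1.51 and 1.05.

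In the header's order 50.7% of all genes were higher in input, and 13.2% at least 2-fold. Membrane proteins were higher in 7 of 8 cases, 2 of them at least 2-fold, but in 4 of 8 with the fractions exchanged. The median of all genes was -0.23 under the exchange. MCOLN1 was at 6.44 FPKM in control input and 19.5 in knockdown-labelled input (1.46), and CD63 differed by 1.06. LAMP2 (0.84), SCARB2 (0.68), NPC1, the cholesterol exporter (0.53), LAMP1 (0.45) and CLN3 (0.32) were within 2-fold, although exchanged fractions put LAMP2 at -1.36 and CLN3 at 1.28. CD68, a LAMP-family protein abundant in macrophages, was the exception at 71.2 and 5.90 FPKM (-3.39). Its polyribosome levels were 69.3 and 6.38 FPKM, so both fractions showed the same gap. In bulk RNA, fewer cells with a message and less of it per cell cannot be told apart.

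Glycan enzymes were higher more often than lower. FUCA1, the alpha-fucosidase, was at 2.85 and 16.9 FPKM (2.21), and NEU1, the sialidase, at 15.1 and 37.8 FPKM (1.27). GAA (0.58), HEXA, the hexosaminidase alpha subunit (0.54), CTSA, which protects the sialidase (0.19), and GLB1, the beta-galactosidase (0.18), were within 2-fold, as was MAN2B1 at -0.30. Of the glycosaminoglycan enzymes 4 of 5 lay between 0.20 and 0.57, namely GALNS, SGSH, GUSB and NAGLU. IDS was at 51.5 and 10.6 FPKM, a difference of -2.18, and with the fractions exchanged this became 0.06. IDS has a near-identical pseudogene copy, so its values are uncertain.

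The proteases had the widest differences, with 2 of 7 higher and 2 of 7 lower by 2-fold or more. Beside these stand 13.2% and 14.4% of all genes. CTSL, CTSH and TPP1 had to differ through the filter, so the spread of this group was partly set by it. CTSL, a broad cysteine endopeptidase, was at 0.06 and 0.04 FPKM in the control libraries and at 46.7 and 40.4 FPKM in the knockdown-labelled ones. The gene was thus close to the table's lower limit of 0.01 FPKM in control cells only, and its input difference was 5.49. CTSH, an aminopeptidase cathepsin, showed the reverse, at 57.2, 61.8, 2.18 and 2.28 FPKM and an input difference of -4.19. CTSD differed by 1.51, TPP1 by -1.10 (15.6 and 6.73 FPKM), LGMN, the asparaginyl endopeptidase, by -0.29, CTSC by 0.24 and CTSB by -0.07. CTSB was at 51.0, 49.96, 48.5 and 64.2 FPKM, a narrow range, whereas its relatives CTSL and CTSH differed by more than any other of the 34 genes. CTSL has a close relative and pseudogene copies, so its reads could be split among them.

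The third comparison did the same for the polyribosome fractions. Of 34 genes 10 were at least 2-fold higher (29.4%, against 16.7% of all genes) and 6 lower to the same extent (17.6%, against 32.9%). The median was 0.45, against -0.28 over all genes, and when values were centred on the latter 14 were higher and 6 lower. Without the GC and length trend it was 0.09, against -0.38. This comparison shares no library with the input comparison, although both use the same pairs of cells. CTSL (5.31), CTSD (2.05), IDS (2.05), MCOLN1 (1.94), CLN3 (1.46), NEU1 (1.42), FUCA1 (1.30), PSAP (1.26), GAA (1.19) and CD63 (1.10) were the 10 that were higher. CTSH (-4.26), CD68 (-3.25), TPP1 (-2.08), ASAH1 (-1.72), CTSC (-1.58) and LAMP2 (-1.52) were the 6 that were lower. In this fraction 42.3% of all genes were above 0. The 7 glycan enzymes and the 5 glycosaminoglycan enzymes were all above 0 in the header's order, from 0.31 for GUSB to 2.05 for IDS. With GC content and length removed 5 of 7 and 2 of 5 were. The medians of these groups were then 0.26 and -0.10, beside -0.38 over all genes. With the fractions exchanged IDS was at -0.18, and LAMP2 and ASAH1 were at 0.68 and 1.13. CTSL, MCOLN1, NEU1, PSAP, CTSH and CD68 stayed at least 2-fold apart in the same direction under each alternative that was run, and the other 10 came within 2-fold or changed sign under at least 1 of them.

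**Figure D2:**
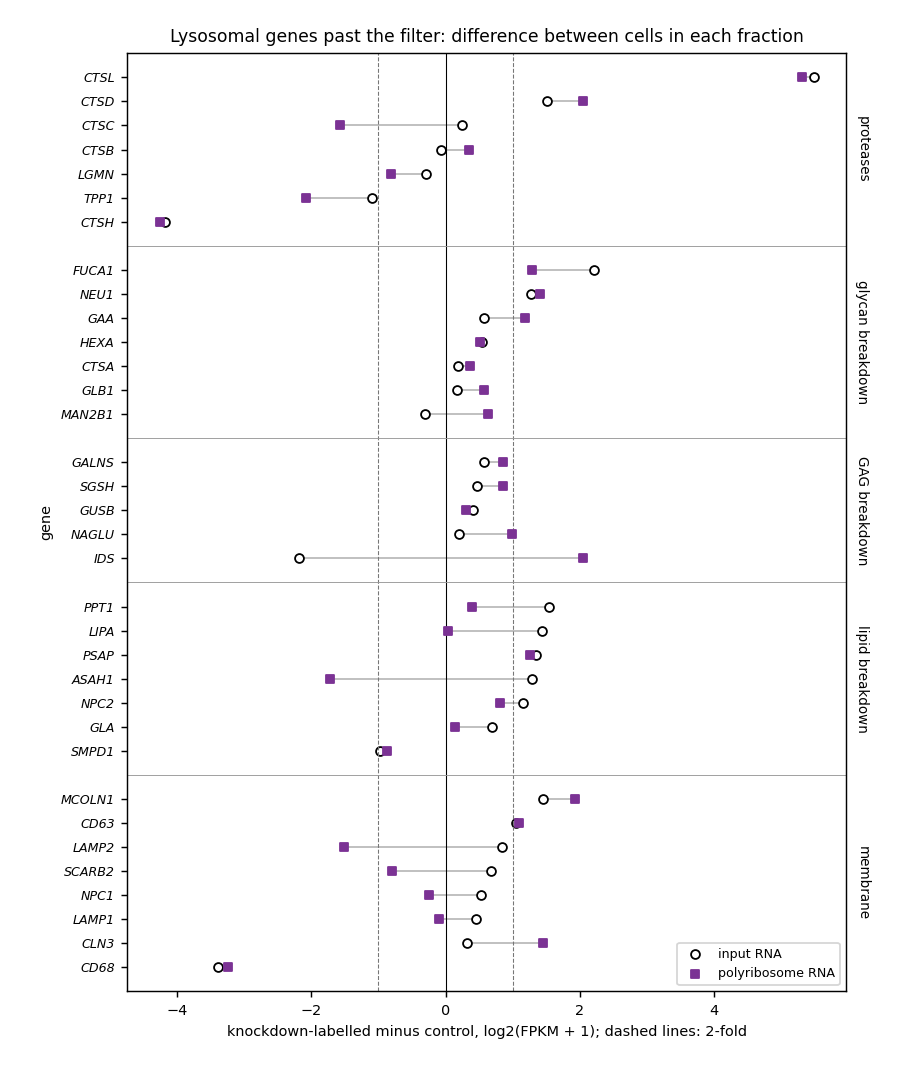
Difference between knockdown-labelled and control cells, log2(FPKM + 1), in input RNA (open circles) and polyribosome RNA (squares) for the 34 genes past the filter, grouped by role. CTSL and CTSH stand at opposite ends with both fractions together, while IDS (-2.18 and 2.05), ASAH1 (1.29 and -1.72) and LAMP2 (0.84 and -1.52) have their fractions on opposite sides of 0.

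Genes with the E-box in their promoter window were described apart. Of the 10, 9 passed the filter, and in input 4 of the 9 were higher by 2-fold or more and 0 were lower, with a median of 0.58. Among the 17 matched genes without it, 5 were higher and 4 lower, with a median of 0.41. The shares of higher genes, 44.4% with it and 29.4% without, both exceeded the 13.2% of all genes. Those of lower genes were 0% and 23.5%, beside 14.4%. In polyribosome RNA 6 of 9 were higher with the E-box (median 1.19) and 3 of 17 without it (median 0.14), beside 16.7% of all genes. Exchanging the fractions turned these into 3 of 9 (median 0.69) and 4 of 17 (0.31), beside 12.7% of all genes. With GC content and length removed they were 2 of 9 (0.71) and 5 of 17 (-0.03), beside 10.4%. The polyribosome contrast in counts thus did not last. In input the exchange gave 6 of 9 and 3 of 17, beside 15.9% of all genes. The transcripts of the first class also had a higher GC content, with a median of 57.8% against 50.5%, and the part of either feature was not tested.

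The fourth comparison was the difference in efficiency between the 2 kinds of cells, the quantity the series defines. Most of the 34 genes, 26 with CTSL counted, were within 2-fold. At least 2-fold higher were 2 of 34 (5.88%, against 12% of all genes) and 6 were at least 2-fold lower (17.6%, against 30.1%). The median was -0.05, against -0.12 over all genes. IDS had the highest value, 4.23, and CLN3 followed at 1.14, with 26.2 FPKM in input and 23.1 on polyribosomes of control cells and 33.0 and 65.1 in knockdown-labelled cells. ASAH1 was the lowest at -3.01, and its 4 levels were 12.7, 14.3, 32.4 and 3.64 FPKM. LAMP2, at 12.8, 14.5, 23.7 and 4.40 FPKM, differed by -2.36. In both genes 1 library, knockdown-labelled polyribosome RNA, was below the other 3 and knockdown-labelled input was above them.

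CTSC (-1.82), SCARB2 (-1.47), LIPA (-1.41) and PPT1 (-1.16) completed the 6. CTSC was at 79.1, 105, 93.8 and 34.4 FPKM, with only knockdown-labelled polyribosome RNA low. For PPT1 and LIPA it was knockdown-labelled input that was high, at 225 and 44.8 FPKM. Of all genes 45.6% were above 0 in the header's order. Proteases and lipid enzymes were below 0 in 5 of 7 and 6 of 7 cases, CTSL being counted among the proteases. Glycosaminoglycan and glycan enzymes were above 0 in 4 of 5 and 5 of 7. These turned to 0 of 5 and 1 of 7 with the fractions exchanged, and to 1 of 5 and 2 of 7 with GC content and length removed. That removal keeps the mean of all genes, whose median was then -0.41 in place of -0.12. The counts above 0 are thus not on the same footing. Glycosaminoglycan and glycan enzymes then had medians of -0.50 and -0.27. Under the exchange, 4 of 7 proteases and 4 of 7 lipid genes were above 0. CTSH, with input levels furthest apart after CTSL, differed by -0.07 in efficiency. No efficiency difference is read for CTSL, since its control levels of 0.06 and 0.04 FPKM put the control value near 0 on this scale whatever the ratio. In the authors' deposited table, where efficiency is a ratio computed with 5 added to each FPKM, IDS was at 0.304 in control and 3.76 in knockdown cells, ASAH1 at 1.09 and 0.231, and LAMP2 at 1.09 and 0.327.

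**Figure D3:**
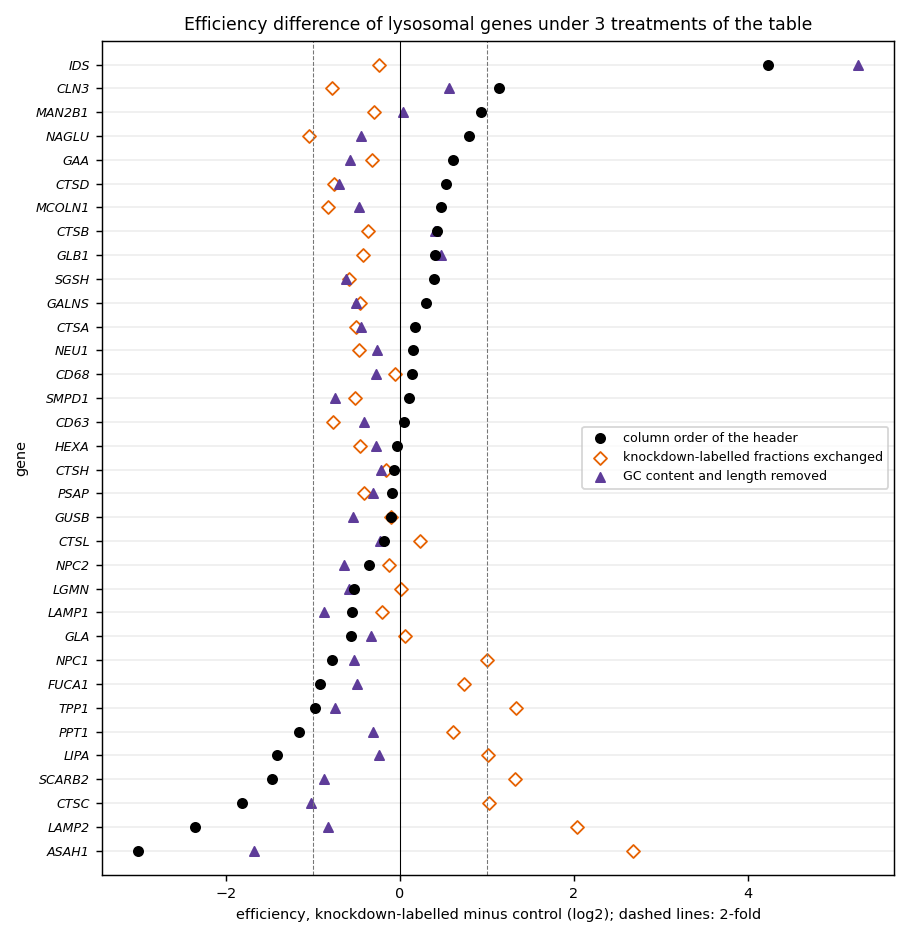
Efficiency in knockdown-labelled minus control cells (log2) for the 34 genes, in the header's column order (black), with the knockdown-labelled fractions exchanged (diamonds) and with GC content and length removed (triangles). The lowest genes in the header's order, ASAH1 (-3.01) and LAMP2 (-2.36), are the highest when the fractions are exchanged, and IDS moves from 4.23 to -0.24.

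Efficiency in knockdown-labelled cells followed the GC content of the transcript, and lysosomal genes did so together with the rest of the table. GC content was taken from 1 GENCODE 29 transcript per gene and had a median of 53.6% over the 34 genes (from 39.8% for LAMP2 to 64.4% for NAGLU) and 52.5% over 7158 genes. Across the 34 genes, which share the same 2 libraries and are not replicates, Spearman's rho between GC content and efficiency was 0.75 in knockdown-labelled cells and -0.14 in control cells. Across the 7158 genes it was 0.82 and 0.02. Of the 17 lysosomal genes with the lower GC content, 13 were below 0 in knockdown-labelled cells, and of the 17 with the higher, 16 were above 0. Over all genes in the same ranges 15.4% and 88.9% were above 0. Each sign turns when the fractions are exchanged, so that 13 of the first 17 are above 0, 16 of the second are below it and rho is -0.75. The median was -0.83 in the first class and 0.38 in the second, beside -1.10 and 0.56 for all genes. ASAH1 (41.6% GC), LIPA (42.8%), PPT1 (45.1%) and CTSC (45.2%) belong to the first class and CTSD (64.0%), GAA (64.1%) and MCOLN1 (60.9%) to the second. IDS, at 43.5% GC, stood apart, with a transcript of 7619 bases.

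Next a trend on GC content and length was removed across all genes. In the efficiency difference 2 of the 34 were then at least 2-fold lower, beside 18.1% of all genes. They were ASAH1 at -1.68 and CTSC at -1.02. IDS alone was at least 2-fold higher, at 5.28, beside 5.34% of all genes. LAMP2 was then at -0.83, LIPA at -0.24 and PPT1 at -0.31. The median of the 34 was -0.46, beside -0.41 over all genes. Input differences had little relation to GC content, with a rho of -0.18 over the 34 genes. With the trend removed 11 were still at least 2-fold higher and 4 lower, beside 12.8% and 14.2% of all genes.

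**Figure D4:**
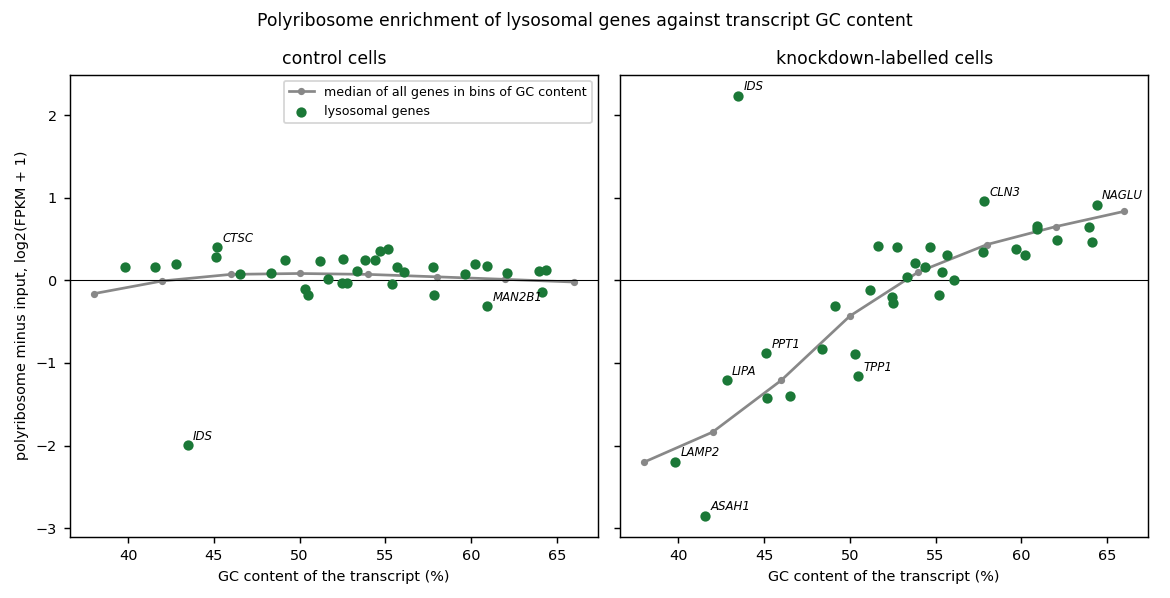
Polyribosome minus input, log2(FPKM + 1), against the GC content of the transcript in control (left) and knockdown-labelled cells (right). Points are the 34 lysosomal genes and the grey line joins medians of all genes in bins of GC content. The points are nearly level on the left (rho -0.14) and climb with the grey line on the right (rho 0.75, or -0.75 with the fractions exchanged), except IDS.

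Other lysosomal genes, from lists chosen for function, were described in the same way. Among 26 further hydrolases 24 had a row and 17 of these passed. In input, 5 of the 17 were higher by 2-fold or more and 2 were lower, with a median of 0.22. Of all genes 13.2% were higher and 14.4% lower. DPP7, a dipeptidase, was at 16.2 FPKM in control input and 197 in knockdown-labelled input (3.53), and HGSNAT, the acetyltransferase of heparan sulfate, differed by 2.49. HYAL1, a hyaluronidase, differed by -3.33 and PRCP, a carboxypeptidase, by -1.41. HYAL1 passed the filter only through the control libraries and HGSNAT only through the knockdown-labelled ones, so both had to differ. Of 11 further membrane proteins past the filter 4 were at least 2-fold higher and 0 lower (median 0.89), with LAPTM4A at 2.09, LITAF at 1.29, CTNS, the cystine transporter, at -0.40 and TMEM55B at -0.48. In polyribosome RNA the medians were 0.37 for the hydrolases, with 6 of 17 higher and 6 lower, and 0.30 for the membrane proteins, with 4 of 11 higher and 2 lower. Of all genes 16.7% were higher and 32.9% lower there, so the share of lower hydrolases (35.3%) was near that of all genes. Under the exchange the input counts were 5 higher and 6 lower for the hydrolases (median 0.44) and 4 higher and 2 lower for the membrane proteins (median 0.26), beside 15.9% and 31.8% of all genes. DPP7 (4.52) and HYAL1 (-2.98) kept their directions, and LITAF was then at -0.12.

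The V-ATPase, the pump that acidifies the lysosome, differed little in input. Of 14 subunits past the filter 1 was at least 2-fold higher, ATP6V1G1 at 1.31, and 0 were lower, with a median of 0.34. Beside these stand 13.2% and 14.4% of all genes. ATP6V0E1 was at 0.95, ATP6V1F at -0.61 and ATP6V0D1 at -0.67. In polyribosome RNA 2 were higher (14.3%, beside 16.7% of all genes), ATP6V0B at 1.62 and ATP6V0C at 1.27. There 6 of 14 were lower (42.9%, beside 32.9% of all genes), among them ATP6V1A at -2.48 and ATP6AP2 at -3.02. After exchanging the fractions, 0 subunits were lower in polyribosome RNA, beside 14% of all genes. In input 5 of 14 were then lower (35.7%), near the 31.8% of all genes. ATP6V1A and ATP6AP2 were at -0.10 and -0.63 in polyribosome RNA under this exchange. Of the genes that tag and sort hydrolases 12 passed, with 2 higher and 2 lower in input. Each count is 16.7%, near the 13.2% and 14.4% of all genes. GNPTG, a subunit of the phosphotransferase that starts the mannose 6-phosphate tag, was at 1.76 and SUMF1, which activates sulfatases, at 1.24, whereas the adaptors AP1M1 and GGA1 were at -1.33 and -1.44. In polyribosome RNA GNPTG was at 2.03, the clathrin adaptor GGA3 at 1.12, AP1G1 at -2.64 and VPS35 of the retromer at -3.26. Under that exchange GNPTG stayed higher, at 1.66, while AP1G1 and VPS35 were at -0.01 and -0.18.

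Defining markers of macrophages, which also express CD68, CTSS and many hydrolases, were low in the 4 libraries. Of 9 listed, 8 were in the table, 0 passed the filter and their summed level was 4.37 to 6.73 FPKM. The highest were LYZ at 2.00, 1.47, 1.85 and 2.97 FPKM and CSF1R at 0.63, 0.63, 2.93 and 2.79, of which CSF1R was higher in the knockdown-labelled libraries. ITGB2 was lower there, at 1.12, 1.74, 0.36 and 0.19, and AIF1 and TYROBP were at 0.10 or less in each library. Fibroblast markers summed to 0.86 to 2.99 FPKM over 6 genes and endothelial markers to 0.22 to 0.78 over 4. Of 9 epithelial markers, not all particular to squamous epithelium, 8 passed the filter. The sum over the 9 was 1396 and 1754 FPKM in the control libraries but 345 and 106 in the knockdown-labelled ones. In input 3 of the 8 were at least 2-fold higher and 3 lower, beside 13.2% and 14.4% of all genes. Much of that sum was KRT5, a basal keratin, at 906 FPKM in control input and 0.45 in knockdown-labelled input. KRT17, at 274 and 7.39 FPKM, and KRT14, at 64.8 and 3.83, were also lower there. SOX2 was at 0.31 and 39.5, EPCAM at 66.4 and 186 and CDH1 at 21.3 and 47.7 FPKM, all higher in knockdown-labelled input. TP63, at 30.25 and 23.66 FPKM, and KRT6A, at 29.51 and 34.25, were within 2-fold. KRT5 and KRT14 passed the filter only through the control libraries and SOX2 only through the knockdown-labelled ones, so they had to differ. With the fractions exchanged 1 of the 8 was at least 2-fold higher in input and 5 were lower, beside 15.9% and 31.8% of all genes. EPCAM, CDH1 and TP63 were then at -1.21, -0.88 and -3.31, and SOX2 stayed higher at 2.82. Most of these epithelial markers thus also differed between the cells, and their part in the lysosomal differences was not tested.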

How the data were processed

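FPKM values per gene symbol were deposited by the authors for 4 libraries, 1 per group; whole reads cannot be recovered from values rounded to 0.01, so the depth is unknown. Per the submitters' processing notes, TopHat (version not listed) and the builds hg19 and GRCh37 were used. Counting tool, strand setting and annotation: not given in the sources used here. The authors also deposited an efficiency ratio, polyribosome over input FPKM with 5 added to each (largest gap to that formula 5e-10). Sample titles gave the groups, and header names gave the columns.

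Differences were taken on log2(FPKM + 1), which understates changes of low genes, for 7379 rows averaging 5 FPKM or more. The 2-fold limit only counts genes and is no test. Genes of the other lists could also pass the filter through only the control or only the knockdown-labelled libraries. Counts over those lists thus describe and support nothing. In 26 rows a number stands in place of a symbol. GC content and length came from the transcript with the longest coding sequence in GENCODE 29 (97% of these rows and each of the 34 lysosomal genes), promoters from RefSeq on GRCh38.p14. The members and lists were chosen with earlier results of these data known. Each of the 41 genes could be named, and 2 highest and 2 lowest of each other list; the markers of other cell types were named after their values were seen, and so was the split by GC content and by E-box. The alternatives were pseudocounts of 0.1 and 5, a mean of at least 1 FPKM or no filter, centring, exchanged fractions, and removal of a fitted second-order trend on GC content and log2 of length. Python 3.11.15 and pandas 2.3.3 were used, and the code was tested on simulated data.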

Additional observations from a re-analysis of the deposited data

Results flagged for a closer look

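In 8 of the 34 genes past the filter (23.5%), polyribosome enrichment lay on opposite sides of 0 in control and knockdown-labelled cells and differed at least 2-fold. The same held for 28.2% of all 7379 genes, so the lysosomal genes do not stand out in this. The difference was not tested, since there is 1 library per group. The efficiency difference was 4.23 for IDS and 1.14 for CLN3. It was -3.01 for ASAH1, -2.36 for LAMP2, -1.82 for CTSC, -1.47 for SCARB2, -1.41 for LIPA and -1.16 for PPT1. Transcript GC content was 39.8% to 46.5% for the 6 genes with negative values, 57.8% for CLN3 and 43.5% for IDS.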

How the results depend on the processing

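In input, the 34 genes gave 11 at least 2-fold higher and 3 to 6 lower under each alternative, and 15 were higher among all 41 without a filter; the median was 0.43 to 0.59. The exchange shared 8 of the 11: ASAH1, LIPA and PPT1 left, and CLN3, GAA and NAGLU entered. Control efficiency kept its counts, 0 higher and 1 lower, in each alternative run. The counts that moved by over 1.5 times did so under exchanged fractions or with GC content and length removed. With the fractions exchanged, knockdown-labelled efficiency had 6 genes higher and 1 lower, beside 28.8% and 8.62% of all genes. Polyribosome RNA then had 3 lower (beside 14%), and the efficiency difference had 6 higher and 1 lower (beside 27.8% and 6.29%). With GC content and length removed, knockdown-labelled efficiency had 1 lower, beside 14.9% of all genes. The efficiency difference had 1 higher and 2 lower, beside 5.34% and 18.1%. The exchange reversed single genes by construction in knockdown-labelled efficiency, to 2.20 for LAMP2, 1.40 for SCARB2, -2.24 for IDS, 1.16 for TPP1, 2.85 for ASAH1, 1.21 for LIPA and 1.42 for CTSC. It also reversed the efficiency difference, to 2.03 for LAMP2, 1.33 for SCARB2, -0.24 for IDS, 0.61 for PPT1, 2.69 for ASAH1, 1.01 for LIPA, -0.78 for CLN3 and 1.02 for CTSC. Input became 0.059 for IDS and -1.56 for ASAH1, and polyribosome RNA 0.68 for LAMP2, -0.18 for IDS and 1.13 for ASAH1. With no replicate spread, a median counted as moved past 1.5-fold, and none was. Without the GC and length trend, however, the median of knockdown-labelled efficiency was -0.36 in place of 0.13. Over all genes it was -0.37 in place of -0.02. That of polyribosome RNA was 0.09 in place of 0.45, beside -0.38 in place of -0.28 over all genes. The removal keeps the mean over all genes and not their median, so the medians of all genes moved as well. The cause was not tested. No paired analysis was possible because each group has 1 library. Leaving out a replicate was likewise not run.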

Other observations

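Genes around the lysosome went different ways. Cystatins inhibit cysteine cathepsins, and 2 of the 4 past the filter were within 2-fold in input. CSTA, a cystatin of stratified epithelia, had input levels of 64.8 FPKM in control and 0.65 in knockdown-labelled cells (-5.32 on the log2 scale), and CST6, cystatin M, at 8.54 and 104 FPKM (3.46). CSTA passed the filter only through the control libraries, so it had to differ. CSTB and CST3 were at 0.55 and 0.18. Exchanged fractions put CSTA and CST6 at -5.45 and 4.13 in input. Of 17 autophagy genes past the filter 0 were at least 2-fold higher in knockdown-labelled input and 2 were lower, beside 13.2% and 14.4% of all genes. The 2 were WIPI1 at -3.09 and the receptor OPTN at -1.96, and the median was -0.09. Both WIPI1 and OPTN passed the filter only through the control libraries, so they had to differ. ATG5 and ATG9A were the highest, at 0.30 and 0.21. In polyribosome RNA 1 was higher, WIPI2 at 1.17, and 8 were lower, with a median of -0.91 and OPTN lowest at -3.39, beside 16.7% and 32.9% of all genes and a median of -0.28. When the fractions were exchanged, 0 were higher and 2 lower in polyribosome RNA (median -0.15), beside 12.7% and 14% of all genes. In input 0 were then higher and 8 lower (median -0.92), beside 15.9% and 31.8%.

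Among regulators of lysosomal genes, TFEB itself was below the filter, at 3.67, 4.92, 4.02 and 5.50 FPKM in control input, control polyribosome RNA, knockdown-labelled input and knockdown-labelled polyribosome RNA. TFE3 was at 53.3, 49.2, 14.1 and 20.7 FPKM, an input difference of -1.84. FLCN, folliculin, which acts on the Rag GTPases, was at 7.67, 7.24, 25.8 and 39.6 FPKM (1.63). LAMTOR1, which anchors Rag GTPases to the lysosome, differed by -1.26 in input and 0.05 in polyribosome RNA, and RRAGC by 0.75 and -1.30. Of the 8 genes of this list past the filter 1 was at least 2-fold higher and 2 lower in input. Of all genes 13.2% were higher and 14.4% lower. In the exchanged order TFE3 was at -1.33, FLCN at 2.23, LAMTOR1 at -0.07 and RRAGC at -0.99 in input.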
